A study of Caenorhabditis elegans with 2 samples.

Results

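The vacuolar ATPase (V-ATPase) genes vha-1, vha-2, vha-3, vha-5, vha-6, vha-8, vha-11, vha-12, vha-13 and vha-15 of Caenorhabditis elegans, 10 of 19973 nuclear protein-coding genes in the WBcel235 annotation, were examined for binding of the transcription factor LSY-2. They were chosen by name and by the measured values themselves: LSY-2 peak summits within 500 bp of an annotated transcript start, their signal and their distance. Their counts and signals are therefore descriptions, and no test was made on them. Of the 10 genes, 5 encode the c and a subunits of the membrane sector V0 and 5 encode subunits of the cytoplasmic, catalytic sector V1, and 11 further genes for V-ATPase subunits were set beside them.

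The V-ATPase is a rotary proton pump of lysosomes, endosomes, secretory vesicles and some plasma membranes. ATP is hydrolysed by the A and B subunits of V1, the resulting turn of a central stalk is passed to a ring of c subunits in V0, and protons cross the membrane between that ring and the a subunit. In the worm the pump acidifies the intestinal lumen and lysosomes, and it is abundant in the excretory canal cell and the epidermis. LSY-2 itself carries zinc fingers and is best known from neuron studies, where it helps to set the left and right ASE taste cells apart.

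The study measured where eGFP-tagged LSY-2 sits on chromatin by chromatin immunoprecipitation and sequencing. There was 1 group with 2 biological replicates, and no second condition. Both were of whole L4 larvae of mixed sex from strain OP240, which carries the mutation unc-119(ed3) on chromosome III and the integrated transgene wgIs240, which supplies the tagged protein. The labels give lsy-2 as the antibody target and name a control experiment, without values of the control at single peaks. No wild-type or untagged strain was part of the values used here, the transgene is 1 insertion line, and signal from whole larvae cannot tell more bound cells apart from more binding per cell.

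Each replicate came with a list of candidate peaks, 25003 in replicate 1 and 24002 in replicate 2. A further list, of 22035 pooled candidates, was made from both replicates, and an optimal list of 1563 peaks held those that passed the authors' reproducibility step. The optimal list coincided with the 1563 strongest pooled candidates, whose signal was between 60.3 and 7029 with a median of 89.8, against a median of 23.8 over all pooled candidates. Signal is the peak caller's own value per peak, on a scale of its own in each list, so ranks by signal (1 is strongest) were used to set lists side by side. A gene is called bound here when an optimal summit lies within 500 bp of a transcript start, and distances are negative upstream of the start on the strand of the gene.

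The sequences under the optimal summits of the 4 bound members, vha-1, vha-8, vha-12 and vha-15, and of vha-9, a bound V1 gene outside the 10, are shown because these are the sites the results turn on. Each is a window of equal length centred on the summit, read 5′ to 3′ on the strand of the gene from the RefSeq copy of WBcel235 (ce11), and none overlaps an annotated exon. They lie at chrIII:9780771-9780871 (vha-1, plus strand), chrIV:6790577-6790677 (vha-8, plus), chrX:4190698-4190798 (vha-12, plus), chrX:2237610-2237710 (vha-15, plus) and chrII:10303852-10303952 (vha-9, minus). Capitals mark matches to the motif GAGAGA, to the motif ACGCAG or to the motif CGTCTC on either strand. A GAGAGA on the opposite strand reads TCTCTC here, while a CGTCTC on that strand reads GAGACG. Motifs can share bases, as CGTCTC does with ACGCAG in vha-15 and with GAGAGA in vha-9.
vha-1: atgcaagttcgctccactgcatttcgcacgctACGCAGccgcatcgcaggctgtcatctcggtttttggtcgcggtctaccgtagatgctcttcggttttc
vha-8: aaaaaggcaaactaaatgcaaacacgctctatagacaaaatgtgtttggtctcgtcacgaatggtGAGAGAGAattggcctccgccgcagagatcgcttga
vha-12: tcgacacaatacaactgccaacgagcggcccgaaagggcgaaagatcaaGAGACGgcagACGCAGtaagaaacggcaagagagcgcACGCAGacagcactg
vha-15: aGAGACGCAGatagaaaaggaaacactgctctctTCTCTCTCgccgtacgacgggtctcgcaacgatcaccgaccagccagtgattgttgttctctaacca
vha-9: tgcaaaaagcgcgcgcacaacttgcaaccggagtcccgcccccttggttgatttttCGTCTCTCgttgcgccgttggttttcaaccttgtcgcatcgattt

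The bound members held different motifs. The vha-1 window had ACGCAG alone, and the vha-8 window had GAGAGA alone, in a run of 8 bases. The vha-12 window had ACGCAG at 2 places and CGTCTC at 1 place, without GAGAGA. In the vha-15 window all 3 were present, with CGTCTC and ACGCAG overlapping near its upstream end. Thus ACGCAG was in 3, GAGAGA in 2 and CGTCTC in 2 of the 4 windows. Of the optimal windows not shown, those at unc-32 (bound, outside the 10), near vha-13 and ahead of vha-3 held none of the 3 motifs. That at vha-16 (bound, outside the 10) held GAGAGA alone. Over all 1563 optimal windows of this length the shares were 18.7% for ACGCAG, 29.8% for GAGAGA and 20.8% for CGTCTC, and 53.0% held none. Over the 20472 pooled candidates outside the optimal list they were 4.05%, 10.2% and 5.50%, and 84.1% held none. A match is a description of the letters, not of a binding site. The motifs were themselves taken from earlier results of these data.

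At the 5 members whose only pooled candidates at the start were weak (vha-2, vha-3, vha-5, vha-11 and vha-13), the window of the same length under the strongest pooled candidate held none of the 3 motifs. In the wider window tried as an alternative, vha-3 had CGTCTC, vha-11 had GAGAGA and vha-13 had both GAGAGA and CGTCTC, while vha-2 and vha-5 had none. At that width GAGAGA was in 3 of the 4 bound members. Over all optimal windows of the wider length the shares were 47.5% for GAGAGA and 31.4% for CGTCTC. Over the pooled candidates outside the optimal list they were 18.85% and 9.83%. The GC content of the shorter windows, of the same length as those shown, was 50.5% at vha-2, 30.7% at vha-3, 27.7% at vha-5, 46.5% at vha-11 and 47.5% at vha-13. In the bound members it was 55.4% at vha-1, 45.5% at vha-8, 56.4% at vha-12 and 51.5% at vha-15. The windows at vha-2, vha-3, vha-11 and vha-13 overlapped exons of those genes, while those at vha-5 and at the bound members overlapped none. The motifs and GC content of these groups of windows are therefore not compared like with like. All optimal windows had a mean GC content of 47.7% ± 7.68 (SD, n = 1563), and pooled candidates outside the optimal list had 38.5%.

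LSY-2 was bound at 4 of the 10 members, which were vha-1 in V0 and vha-8, vha-12 and vha-15 in V1. The same call was made at 4.79% of all protein-coding genes. A pooled candidate of any strength lay at 9 of the 10 members, every one but vha-6, beside 29.9% of all genes. In replicate 1 a candidate lay at all 10 members, beside 32.2% of all genes, and in replicate 2 at 8 of 10, beside 31.4%. Both replicates had a candidate at the same 8 members, beside 20.9% of genes. Among the 1563 strongest candidates of both replicates were summits at 3 members, vha-1, vha-8 and vha-15, beside 3.52% of genes. With a window of 250 bp on either side of a start, in place of 500 bp, the 4 optimal calls were lost, leaving 0 of 10 members beside 2.91% of all genes. Since these lists entered the choice of the genes, the members' counts are not read against those percentages.

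**Figure D1:**
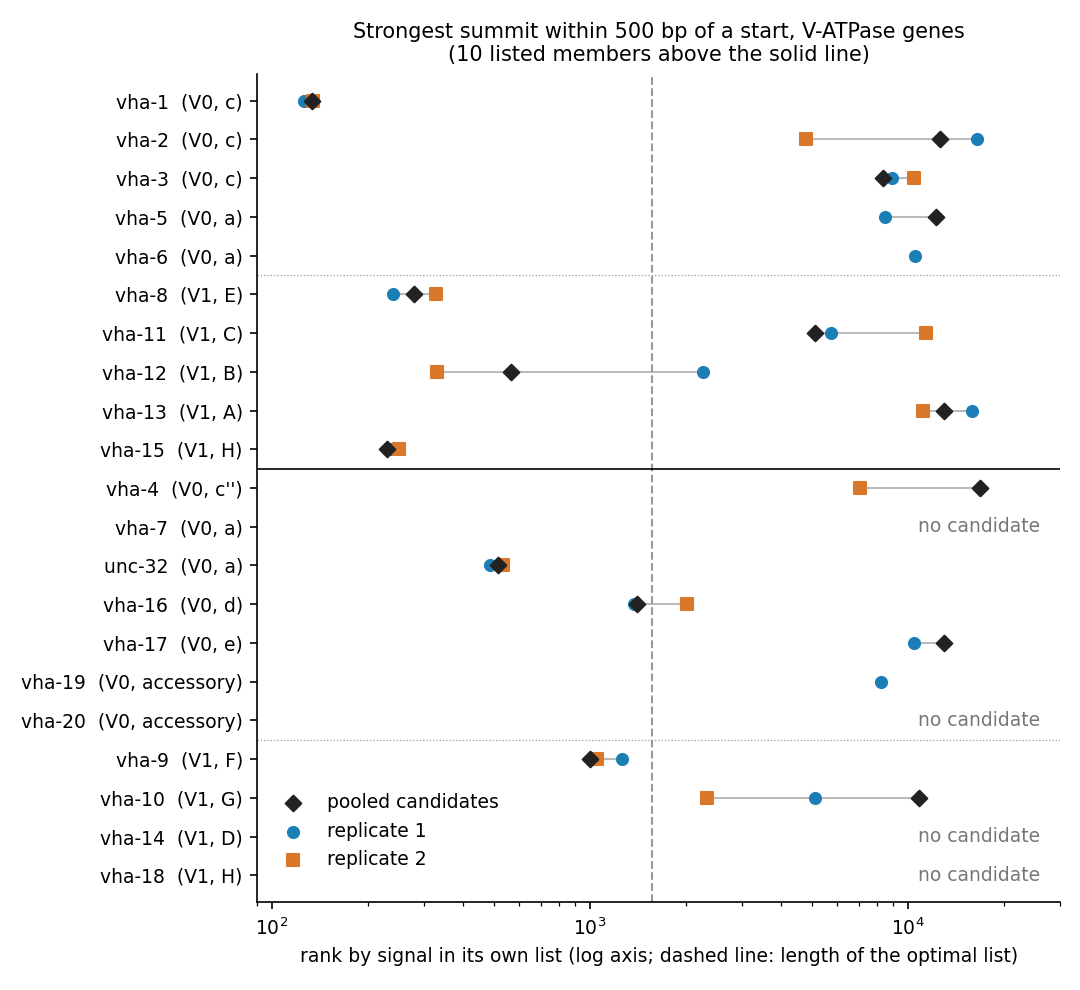
Rank by signal (x axis, log scale, in the list it comes from) of the strongest candidate summit within 500 bp of a transcript start for each V-ATPase subunit gene, the 10 members above the solid line and 11 other subunit genes below it. Black diamonds are pooled candidates, blue circles replicate 1, orange squares replicate 2, and the dashed line is the length of the optimal list, 1563; among the members vha-1, vha-8, vha-12 and vha-15 have pooled ranks from 134 to 563, left of the line, and the other pooled ranks are 5099 or more.

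Among the c subunits, the proteolipids that form the rotating ring, 1 gene was bound and the others were not. The strongest peak of any member was at vha-1 (WBGene00006910, III 9781254 to 9781763, plus strand). Its optimal peak spanned III 9780728 to 9780939 with the summit at 9780821, -433 bp from the start, between genes, with a signal of 295.0 and rank 134. In replicate 1 the peak had a signal of 139.3 and rank 126, and in replicate 2 a signal of 161.1 and rank 135. Its place in the list was thus close between the replicates. The genes outside the lists with the most similar set of 3 ranks, among 3945 genes with a candidate in all 3 lists, were sqv-3, which has the same summit, then F10E7.5 with ranks 129, 125 and 129, and K06H7.7 with ranks 133, 132 and 127.

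The other c subunit genes had only weak candidates at their starts. At vha-2 (WBGene00006911, III 9782164 to 9783224, plus strand) pooled candidates lay at 310 bp, with a signal of 22.4 and rank 12630, and at 19 bp, with a signal of 19.5 and rank 17142. Replicate 1 had its stronger candidate at -452 bp (signal 11.02, rank 16479), while that of replicate 2 was at 18 bp (signal 19.95, rank 4773). The replicates therefore placed their strongest vha-2 candidates at different sites. At vha-3 (WBGene00006912, IV 2315460 to 2315945, minus strand) the pooled candidate was at -39 bp with a signal of 26.8 and rank 8367. Replicate 1 had one at 18 bp (signal 14.4, rank 8935) and replicate 2 at -188 bp (signal 14.1, rank 10456). The vha-2 and vha-3 proteins are near-identical, and how reads that match more than one place were counted is not given in the sources used here.

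The a subunits form the stationary channel through which protons pass, and worms have several, used in different tissues. At vha-5 (WBGene00006914, IV 8303968 to 8307371, plus strand), known for its role in the excretory canal and in the cuticle's secretion, the pooled candidate was at 231 bp with a signal of 22.8 and rank 12219. Replicate 1 had a candidate at 213 bp (signal 14.7, rank 8483), and replicate 2 had none. At vha-6 (WBGene00006915, II 11435210 to 11438452, minus strand), the intestinal a subunit, a candidate was listed in replicate 1 alone, at -391 bp with a signal of 13.4 and rank 10557. Neither gene had an optimal summit in its neighbourhood: the nearest was 71.7 kb away for vha-5 and 14.8 kb away for vha-6.

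In V1, the E subunit gene vha-8 (WBGene00006917, IV 6791074 to 6792455, plus strand) encodes part of the peripheral stalk that holds the catalytic head in place. Its optimal peak spanned IV 6790582 to 6790706, with the summit at 6790627, -447 bp from the start, a signal of 169.5 and rank 280. The peak had a signal of 87.7 and rank 241 in replicate 1, and a signal of 85.4 and rank 328 in replicate 2. The H subunit gene vha-15 (WBGene00020507, X 2237911 to 2240255, plus strand) encodes a regulator of V1 activity. Its optimal peak spanned X 2237569 to 2237679, with the summit at 2237660, -251 bp from the start, a signal of 189.4 and rank 230. It had a signal of 88.7 and rank 235 in replicate 1, and 98.4 and rank 251 in replicate 2. Both genes thus had a rank under 330 in each of the replicates.

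The catalytic hexamer of V1 alternates A and B subunits, encoded by vha-13 and vha-12. At vha-12 (WBGene00006921, X 4191094 to 4193144, plus strand) the optimal peak spanned X 4190553 to 4190942, with the summit at 4190748, -346 bp from the start, a signal of 109.6 and rank 563. In replicate 1 the peak had a signal of 25.4 and rank 2268, outside the 1563 strongest, and in replicate 2 a signal of 85.0 and rank 330. The rank number in replicate 1 was 6.87 times that in replicate 2, and 1.15% of optimal peaks had a higher ratio. No other bound member differed between replicates in this way: the ratio was 0.933 at vha-1, 0.735 at vha-8 and 0.936 at vha-15. A rank at least 4 times worse in replicate 1 than in replicate 2 occurred at 47 of 1560 optimal peaks found in both replicates, and the reverse at 37. With 2 replicates, which of them stands nearer the true level at vha-12 cannot be told apart.

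**Figure D2:**
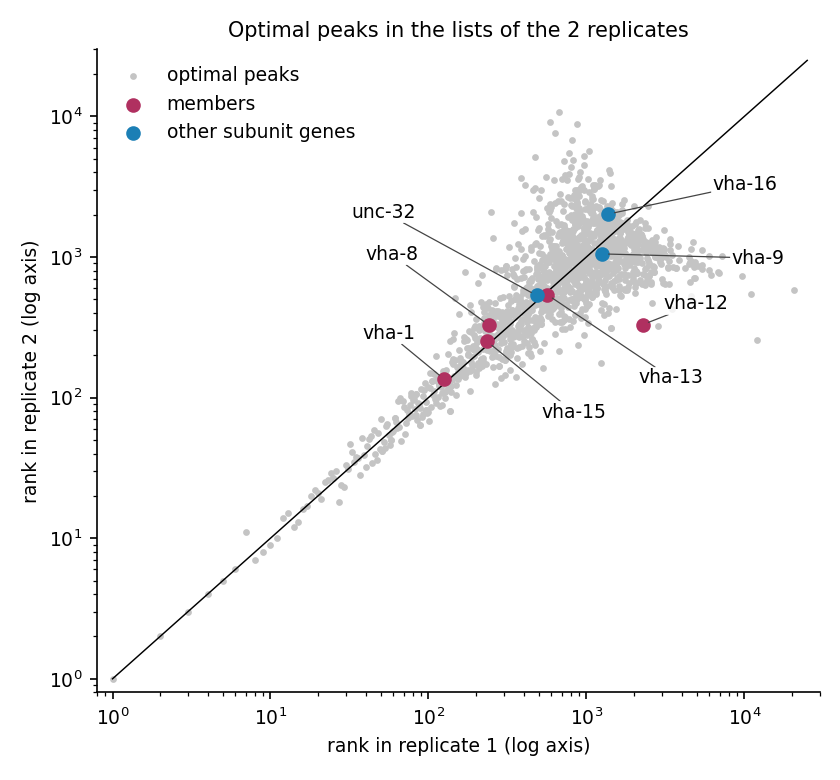
Rank of each optimal peak among the candidates of replicate 1 (x axis) and of replicate 2 (y axis), both log scales with 1 as the strongest; grey points are optimal peaks, red points the peaks of vha-1, vha-8, vha-12, vha-15 and the peak near vha-13, blue points those of 3 other subunit genes, and the line marks equal ranks. The members lie close to the line except vha-12, at rank 2268 in replicate 1 and rank 330 in replicate 2.

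At vha-13 (WBGene00013025, V 14351709 to 14354422, plus strand), which encodes the catalytic A subunit, an optimal summit lay just past the 500 bp limit. That peak spanned V 14350937 to 14351326, with the summit at 14351132, -577 bp from the start, inside an exon of the upstream gene cept-2, and it had a signal of 114.2 and rank 532. It had rank 564 (signal 53.3) in replicate 1 and rank 540 (signal 62.4) in replicate 2. Within 500 bp of the vha-13 start lay only weak candidates: a pooled candidate at 229 bp with a signal of 22.1 and rank 13020, one of replicate 1 at -15 bp with rank 15945, and one of replicate 2 at 317 bp with rank 11177. On distance, vha-8 at -447 bp was the bound member nearest the inside of the limit, and vha-13 at -577 bp the one nearest its outside.

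The C subunit gene vha-11 (WBGene00006920, IV 2307815 to 2314567, minus strand) encodes the protein that bridges the peripheral stalks to V0 and leaves when the pump comes apart. Its pooled candidate was at 24 bp, with a signal of 33.4 and rank 5099. Replicate 1 had its stronger candidate at 155 bp (signal 17.1, rank 5726), and replicate 2 had one at 62 bp (signal 13.5, rank 11419). By pooled rank, vha-12 at 563 was the last member inside the optimal list and vha-11 at 5099 the first outside it, so no member lay close to the end of that list at rank 1563.

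Between the sectors, 1 of 5 V0 members and 3 of 5 V1 members were bound. The strongest pooled summit at the start had a median signal of 24.8 over the 4 V0 members with a candidate (22.4 to 295.0) and of 109.6 over the 5 V1 members with a candidate (22.1 to 189.4). The V1 median is the value of vha-12 itself, and in the 250 bp window the medians were 22.8 over the 3 V0 members and 27.7 over the 2 V1 members left. With the 500 bp window, the medians in replicate 1 were 14.4 in V0 and 25.4 in V1. In replicate 2 they were 19.95 over 3 V0 members and 85.0 over 5 V1 members. The V1 median in each replicate was again the value of vha-12, whose rank differed between them. The ranges of the sectors overlapped, and the strongest single peak belonged to V0. Over the 5976 protein-coding genes with a pooled candidate the median was 27.8. Over all 21 subunit genes, the bound genes were 3 of 12 in V0 and 4 of 9 in V1. The sectors' counts differ by few genes, and genes of a sector are not replicates, so no difference between the sectors is claimed.

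All 4 bound members had their summit upstream of the start, and farther upstream than most bound genes. Distance entered the choice of the genes, so this is a description and is not read as a trait of V-ATPase genes. The vha-8 summit lay nearer to the start of the divergent gene C17H12.2, at -139 bp. Of all 957 bound genes, 91.7% had the summit upstream, and the median distance was -202 bp with quartiles of -302 and -106 bp. The median of the 4 members was -389.5 bp. A position farther upstream than that of vha-8 was found at 5.02% of bound genes, farther than vha-1 at 6.37%, farther than vha-12 at 17.9% and farther than vha-15 at 37.9%. Many C. elegans messages are trans-spliced, and an annotated start can then be the splice site rather than the place where transcription begins. The first codon began 0 bp from the annotated start at vha-1, 24 bp at vha-8, 2 bp at vha-12 and 2 bp at vha-15. How far from the transcription start itself the summits lie was not tested.

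**Figure D3:**
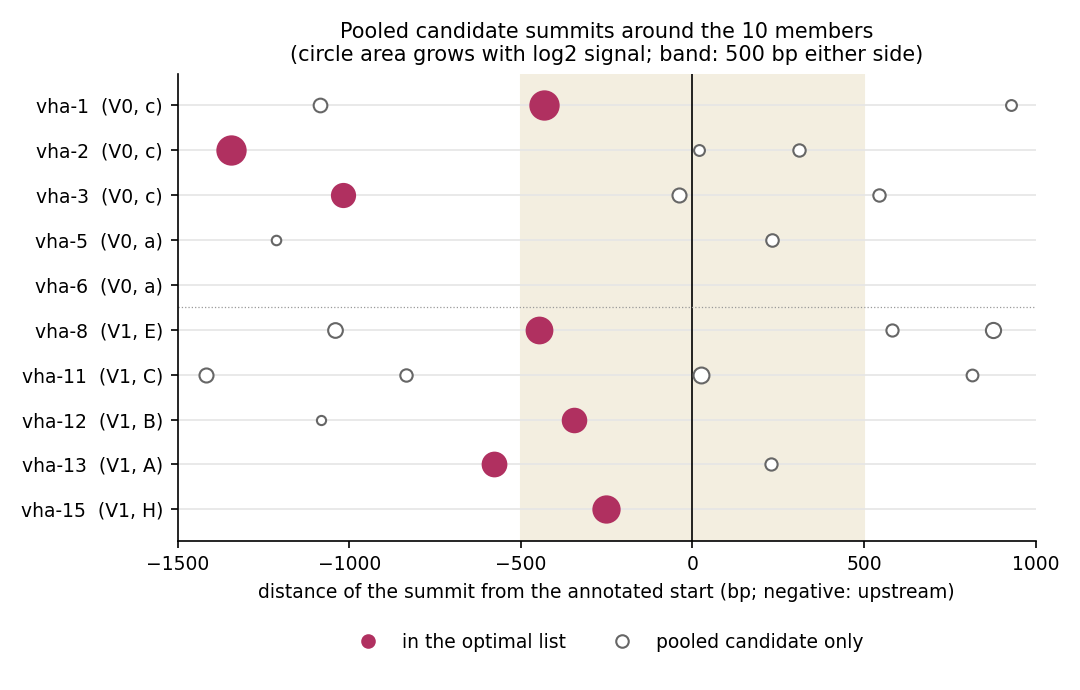
Distance in bp of the pooled candidate summits inside the plotted range from the nearest annotated start of each of the 10 members (x axis, negative upstream), with circle area growing with the log2 of signal; filled red circles are in the optimal list, open circles are not, and the band marks 500 bp on either side. The filled circles in the band are at -433 bp (vha-1), -447 bp (vha-8), -346 bp (vha-12) and -251 bp (vha-15), and the one at vha-13 is just outside at -577 bp. Filled circles farther upstream are at -1017 bp (vha-3) and at -1343 bp (vha-2, the vha-1 peak).

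Replicates placed the peaks at nearly the same position. The summits of the 2 replicates were 29 bp apart at vha-1, 31 bp at vha-8, 35 bp at vha-12, 37 bp near vha-13 and 35 bp at vha-15. The median over optimal peaks was 23.5 bp, with an upper quartile of 49.2 bp. The pooled signal was 0.982, 0.979, 0.993, 0.987 and 1.01 times the sum of the replicates' signals at these 5 peaks, in that order, and the median over optimal peaks was 0.998. The peaks of vha-1 (212 bp), vha-8 (125 bp) and vha-15 (111 bp) were narrower than the common width of 390 bp, as were 17.7% of optimal peaks. In the replicate lists only the vha-1 peak was narrow, at 140 bp in replicate 1 and 187 bp in replicate 2. The vha-8 and vha-15 peaks had the common widths there, 370 bp in replicate 1 and 396 bp in replicate 2. Only 1.85% of optimal peaks were narrower than that of vha-15, 2.75% narrower than that of vha-8 and 9.02% narrower than that of vha-1.

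Of the 4 bound members, 2 shared their summit with a neighbouring gene on the opposite strand. Over the genome, the 957 bound genes had 781 optimal summits within 500 bp of a start, so shared summits were not particular to the members. How many bound genes share a summit with a divergent gene was not counted. The vha-1 summit was -467 bp from the start of sqv-3 (WBGene00005021), which encodes a galactosyltransferase of glycosaminoglycan synthesis and points away from vha-1 across a gap of 899 bp. The summit was thus near the middle of the gap and within 500 bp of both starts. The vha-8 summit was nearer to the divergent gene C17H12.2 (WBGene00015928), at -139 bp, than to vha-8, in a gap of 585 bp. The vha-12 and vha-15 summits had no second protein-coding gene start within 500 bp, and starts of noncoding genes were not examined. Upstream of vha-12 the divergent gene mrp-6 ended a gap of 4337 bp, and upstream of vha-15 the gene T14F9.2, on the same strand, lay 1204 bp away. Peak position alone does not assign a shared summit to either gene.

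The members include 2 pairs of neighbours on one strand, of which 1 has the gap of under 500 bp that is called close here. The genes vha-1 and vha-2 are 400 bp apart, with the optimal peak ahead of vha-1 and none at vha-2, so that the nearest optimal summit to vha-2 was the vha-1 peak at -1343 bp. The weak replicate 1 candidate at rank 16479 lay inside vha-1, 458 bp from its start and -452 bp from the vha-2 start. The genes vha-3 and vha-11 are 892 bp apart, close only under a limit of 1000 bp, and neither was bound. The nearest optimal peak, with a signal of 102.8 and rank 625 (rank 732 in replicate 1 and 653 in replicate 2), spanned IV 2316767 to 2317156. It was -1017 bp from vha-3 and -2395 bp from vha-11, but -41 bp from the divergent gene Y38F2AL.12 (WBGene00219413), over exons of it and of the noncoding gene Y38F2AL.10. Whether either pair is transcribed from a single start was not tested, since spacing and strand were the information used.

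**Figure D4:**
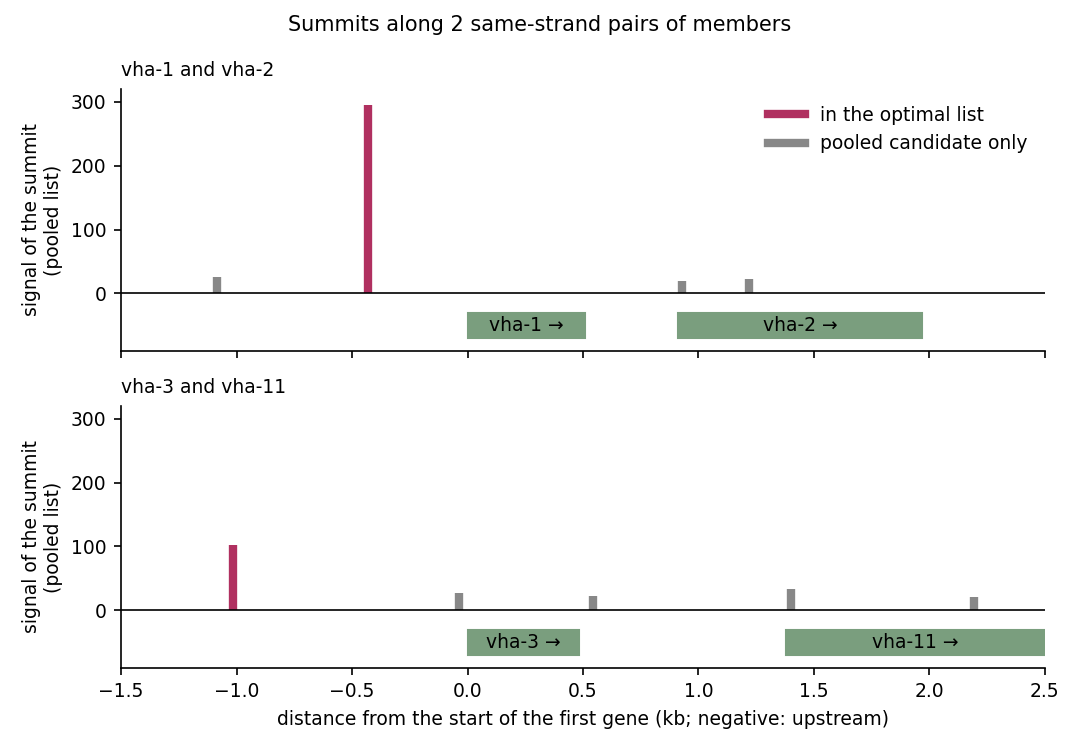
Signal of each pooled candidate summit inside the plotted range (y axis, the caller's own scale) by its distance in kb from the start of the first gene (x axis, negative upstream) for the pairs vha-1 and vha-2 (top) and vha-3 and vha-11 (bottom), with the genes drawn as green boxes pointing right. Red bars are in the optimal list, with a signal of 295.0 ahead of vha-1 and 102.8 ahead of vha-3, and grey bars are pooled candidates only, with a signal of 33.4 or less.

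The vha-13 gene is likewise the second of a close pair. Its upstream neighbour on the same strand, cept-2 (WBGene00013024), which encodes a choline or ethanolamine phosphotransferase, ends 226 bp before it and was bound at its own start, at -331 bp with a signal of 128.9 and rank 434. Among subunit genes outside the 10, the same order held for sym-4 and vha-20, 133 bp apart, with a signal of 138.8 at sym-4, and for unc-32 and tpk-1, 387 bp apart, with 116.0 at unc-32. The reverse held for gcy-4 and vha-9, 425 bp apart, where the second gene was bound. The next gene on that strand, clpp-1, lies 207 bp after vha-9 and was not bound. Neither gene was bound in the overlapping pairs vha-2 and R10E11.6 and vha-13 and Y49A3A.3, or in the pairs vha-4 and T01H3.2, trpp-8 and vha-10, and vha-10 and ubl-5. Overlapping pairs are not in the genome count that follows. Over the genome there were 3455 neighbouring pairs on one strand under 500 bp apart. The first gene was bound in 7.67% of them and the second in 2.66%, and in 15 pairs both were bound.

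Of the 11 other subunit genes, 3 were bound, beside 4.79% of all genes. The count was 1 (unc-32) with the stronger 781 optimal peaks and 1 (vha-16) in the ce10 lists with signals matched within 1%. The ce10 optimal list also held peaks for unc-32, with a signal of 119.1 and rank 492, and for vha-9, with 75.6 and rank 1044. These missed only the 1% limit, and all 3 genes were found within 5%, a tolerance chosen after seeing the data. At unc-32 (WBGene00006768), the a subunit of neurons, the summit was at -165 bp with a signal of 116.0 and rank 515, with ranks of 485 in replicate 1 and 532 in replicate 2. A much stronger peak, with a signal of 1219 and rank 16, lay at -1322 bp from unc-32, next to the divergent gene lin-9 of the DREAM complex. At vha-9 (WBGene00006918), the F subunit of the central stalk, the summit was at -189 bp with a signal of 77.5 and rank 1000, with ranks of 1262 in replicate 1 and 1051 in replicate 2. At vha-16 (WBGene00016258), the d subunit that seats the stalk on the ring, the summit was at -130 bp with a signal of 63.9 and rank 1407, with ranks of 1379 in replicate 1 and 2020 in replicate 2. All 3 were nearer to the start than any bound member of the 10.

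The remaining subunit genes had weak candidates or none. A pooled candidate lay at vha-4 (c double prime), with a signal of 19.6 and rank 16843, at vha-10 (G), with a signal of 24.0 and rank 10845, and at vha-17 (e), with a signal of 22.2 and rank 12957. No pooled candidate lay at vha-7, vha-14, vha-18, vha-19 or vha-20, of which vha-19 had a replicate 1 candidate at rank 8253. The a subunit was thus bound at 1 of its 4 genes, unc-32, and the H subunit at 1 of its 2 genes, vha-15 but not vha-18. Over all 21 subunit genes, 7 were bound, 15 had a pooled candidate and 12 had candidates in both replicates, beside 4.79%, 29.9% and 20.9% of all protein-coding genes for these 3 calls.

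Genes that act with the pump were counted in the same way. From a list of 31 genes for lysosomal proteins and for the V-ATPase's assembly and nutrient signalling, 30 were matched in the annotation, and 2 of these were bound, beside 4.79% of all genes. At rbc-2, a rabconnectin of V-ATPase assembly, the summit was at -121 bp with a signal of 198.5 and rank 210. At hlh-30, the worm's TFEB, a regulator of lysosomal genes, it was at 395 bp from one of its starts with a signal of 66.3 and rank 1317. A pooled candidate lay at 16 of the 30, beside 29.9% of all genes. Besides rbc-2 and hlh-30, those of lmtr-3 (rank 2942), ragc-1 (2989), flcn-1 (3256), asp-3 (3260), asp-1 (3534), cpl-1 (4060) and clh-6 (4485) were the strongest by pooled rank. The candidates of ctns-1 (rank 9288), daf-15 (9999), lmtr-2 (12145), asah-1 (14841), laat-1 (15338), scav-3 (15620) and cln-3.3 (21753) were weaker.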

How the data were processed

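Chromatin immunoprecipitation was measured in 2 biological replicates of 1 group, and peak lists on ce11 were analysed. The optimal list was derived from the pooled and replicate candidates, per the deposited text listings. The aligner, the peak caller, the reproducibility threshold and the read depth are not given in the sources used here, so no interval for counting error can be given. The authors deposited, per peak, a signal value, a -log10 q value that has a ceiling in each list (3.53 in the optimal and pooled lists), and the offset of the summit in bp, an unscaled number. Signals are the authors' own and served mainly to describe and rank peaks within a list. Across lists they were used for the ratio of the pooled signal to the sum of the replicates' signals at a peak. They also served to match ce11 peaks to ce10 peaks, and the spread of replicate medians set the limit for pooled medians under alternatives.

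Summits were taken as the peak start plus the offset and set against transcript starts of the Ensembl release 115 annotation of WBcel235, with Python 3.11.15, NumPy 2.4.6 and pandas 2.3.3. Every region of the lists lay inside the chromosomes of that build. A summit within 500 bp of any start of a gene was counted for it. The assignment of summits to starts was tested on simulated data with planted summits. The members, the gene lists and the motifs were chosen with earlier results of these data known. Named genes were the 10 members, list genes with an optimal or pooled summit, genes sharing a summit with a member, and the 3 genes with ranks most like those of the strongest member; the neighbours of the close pairs, the genes flanking the peaks and the subunit genes without a pooled candidate were added after their values were seen. Alternatives were other windows, the stronger part of the optimal list, peak overlap, nearest start, gene start, leaving out a replicate, the ce10 lists and a wider motif window. With 1 group and no second condition, no test was made.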

Additional observations from a re-analysis of the deposited data

How the results depend on the processing

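Of 88 alternatives to 23 results, 79 left the value in place and 9 moved it. Counts and shares had to stay within 1.5 times the main value, medians and distances within the spread between replicates, and replicate ranks had to be equal. For medians that spread comes from the replicate lists, whose signal scales differ from that of the pooled list. For gene counts and shares, 49 of 57 alternatives left the value in place, and for other values 30 of 31 did. Alternatives for distances and ranks looked up the same peaks again, and distances were skipped where the 250 bp window lost the summit. They could hardly move, so they say little about robustness. With a 250 bp window the bound members numbered 0, in V0 0 and in V1 0, the share of bound genes was 2.909%, and members with candidates in both replicates numbered 2 (vha-3 and vha-11), since a narrower window admits fewer summits. The stronger 781 peaks of the optimal list left 1 other subunit gene (unc-32) and 2.779% of all genes bound. In the ce10 lists, with signals matched within 1%, 1 other subunit gene (vha-16) and 3 members were found, without vha-15, 2 of them in V1, and within 5%, a tolerance chosen after seeing the data, 3 and 4 were. Leaving out a replicate gave 3 to 4 bound members (vha-12 was lost without replicate 2), 1 in V0 either way, 2 to 3 in V1, 2 to 3 other subunit genes and 4.566% to 4.686% of all genes. Windows of 1000 bp gave 5 bound members, adding vha-13, beside 6.203% of all genes, or 5.798% with 200 bp downstream. Overlap of the peak with the window also gave 5, adding vha-13, beside 5.252% of all genes. Counting the nearest start alone gave 3, dropping vha-8, beside 3.795% of all genes. The median pooled signal of V1 members was 27.7 in the 250 bp window, over 2 genes. No paired analysis was possible because there was 1 group. Depth is unknown, the 2 replicates show only the spread between them, and summit positions do not assign a peak to a gene.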
